A study of Mus musculus with 3 samples.

Results

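Type 1 conventional dendritic cells (cDC1) of the mouse aorta were 95 of 5609 immune cells that passed quality limits, out of 8471 cell barcodes in all. cDC1 are a rare branch of the dendritic cells that take up dead cells and present their antigens on MHC class I to CD8+ T cells, a process called cross-presentation. They depend on the transcription factors IRF8 and BATF3 and carry the chemokine receptor XCR1 and the dead-cell receptor CLEC9A, whereas type 2 cells (cDC2) depend more on IRF4 and carry CD11b and Sirpa. In arteries they are a minor population beside the far more numerous macrophages.

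The cells came from the aortas of 10 mice, studied by CITE-seq, which reads the transcripts of a cell together with DNA-tagged antibodies bound to its surface, each molecule counted once by a unique molecular identifier (UMI). Mice 1 to 5 were Jak2WT littermates. Mice 6 to 10 were Jak2V617F Myel animals (called Jak2V617F MyC in the labels), which carried the Jak2V617F Flex allele over a wild-type allele and LysM-Cre. The Lyz2 (lysozyme M) promoter drives that Cre mainly in myeloid cells, so the mutation reaches a dendritic cell only as far as it or its precursor used this promoter, and recombination was not measured in these cells. All mice were untreated and on a C57BL/6 background, and the age of the sequenced mice was not stated in the sources used here. Of the mutant mice, 7 and 9 showed an aortic aneurysm, and 6, 8 and 10 a dilated aorta with no aneurysm. Leukocytes of the blood were marked by an intravenous anti-CD45.2 antibody and left out of the sort, the genotypes were sorted in about equal amounts, and 1 hashtag antibody per mouse tied each cell of the single pooled run to its animal. How many cells a genotype gave is thus set by the sort, and every test was made over mice. Some descriptions, such as medians per cell and correlations over cells, pool the cells of all mice.

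Members were chosen by measured values. A barcode was kept when its top hashtag count was at least 3 times the second (7196 barcodes), at most 10% of its UMIs were mitochondrial (6098) and it held at least 2000 gene UMIs (5609). Of these, 114 held at least 2 UMIs of Xcr1 and Clec9a together, 98 of them had C1qa, C1qb and C1qc under 10 per 10000 UMIs, and 95 of those had no Cd79a or Cd3e. Xcr1, Clec9a, the C1q genes, Cd79a and Cd3e are thus no findings, and no transcript difference from other cells was tested. Most members lay well inside the gate. At 4 or more Xcr1 plus Clec9a UMIs were 84 of the 95 cells, with medians of 16 Naaa UMIs and 15 XCR1 antibody counts, 4 cells stood at 3 UMIs (medians 7.5 and 9) and 7 cells at 2 UMIs (medians 10 and 5). Just outside, 24 cells with 1 such UMI had medians of 1.5 Naaa UMIs and 0 XCR1 antibody counts, and 8 of the 24 had any XCR1 antibody. The gene, antibody and hashtag libraries shared 8465 barcodes, since they were read from the same droplets.

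The label held for nearly all members. All 4 fixed markers, Xcr1, Clec9a, Naaa (a lipid amidase) and Wdfy4 (required for cross-presentation of cell-bound antigen), were found in 79 of the 95 cells (83.2%). Both gate genes were present in 80 cells, Clec9a alone in 14 and Xcr1 alone in 1. Outside the gate genes, Wdfy4 was found in 94 cells, Naaa in 92, Irf8 in 91 and Batf3 in 78. The antibody against XCR1 bound 88 of the 95 cells. A few members went against the label. 4 cells (mice 1, 2 and, for 2 cells, 10) had 8 to 34 UMIs of Cd209a, a cDC2 lectin, no Irf8 and at most 1 XCR1 antibody count, and 2 cells (mice 6 and 9) had 28 to 52 UMIs of Siglech, a marker of plasmacytoid dendritic cells, with no Naaa and no XCR1 antibody. The rule keeps these 6 cells, and the comparisons over mice are also given without them. Of the cell type marker lists, at least 2 UMIs of the 3 shown markers were found in 0 cDC1 for B cells, 3 for T cells, 1 for NK cells, 2 for type 2 innate lymphoid cells, 2 for neutrophils, 4 for non-leukocytes and 35 for mast cells. Of the mast cell genes Kit, the stem cell factor receptor, was the most abundant, at 61.7 CPM (UMIs scaled to a common total per mouse, mean over 7 mice) of a summed 80.9 CPM for 8 mast cell genes, of which Gata2 was at 0 and the protease Cpa3 at 3.13 CPM. Over mice 2, 5, 6, 7, 8, 9 and 10 that sum was 34.2, 108, 66.2, 72.8, 50.9, 147 and 87.1 CPM.

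The genes that define these cells lie on separate chromosomes of the GRCm38 assembly (GENCODE vM21). Xcr1 is at chr9:123852315-123862029 on the minus strand, Clec9a at chr6:129408862-129424763 on the plus strand, Naaa at chr5:92257659-92278170 on the minus strand and Wdfy4 at chr14:32959547-33185508 on the minus strand. The 250 bases before the transcription start of both gate genes, and of a pair of other genes with among the largest folds in cDC1, Ifi205 (an interferon-inducible DNA sensor family member) and Gpr141b (an orphan receptor), follow from RefSeq on GRCm38.p6, 5′ to 3′ along the strand of the gene, to show the start regions of genes on which the description of these cells turns. Capitals mark a match, on either strand, to a pair of GAAA runs with 2 bases between them, letters that interferon regulatory factors such as IRF8 are known to bind.
Xcr1 chr9:123862030-123862279: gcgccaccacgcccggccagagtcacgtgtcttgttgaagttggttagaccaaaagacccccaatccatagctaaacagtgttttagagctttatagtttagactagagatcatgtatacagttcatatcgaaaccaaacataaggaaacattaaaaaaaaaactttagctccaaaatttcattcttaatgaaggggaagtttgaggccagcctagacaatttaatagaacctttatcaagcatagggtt
Clec9a chr6:129408612-129408861: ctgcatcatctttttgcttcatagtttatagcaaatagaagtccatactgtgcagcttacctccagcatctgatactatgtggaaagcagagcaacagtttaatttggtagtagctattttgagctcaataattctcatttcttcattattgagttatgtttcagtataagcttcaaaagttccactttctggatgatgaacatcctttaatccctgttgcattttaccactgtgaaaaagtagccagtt
Ifi205 chr1:174031756-174032005: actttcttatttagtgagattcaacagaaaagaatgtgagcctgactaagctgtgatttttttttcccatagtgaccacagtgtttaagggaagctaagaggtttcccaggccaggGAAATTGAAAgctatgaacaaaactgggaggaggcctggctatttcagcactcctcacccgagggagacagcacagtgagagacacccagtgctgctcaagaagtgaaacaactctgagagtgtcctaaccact
Gpr141b chr13:19732952-19733201: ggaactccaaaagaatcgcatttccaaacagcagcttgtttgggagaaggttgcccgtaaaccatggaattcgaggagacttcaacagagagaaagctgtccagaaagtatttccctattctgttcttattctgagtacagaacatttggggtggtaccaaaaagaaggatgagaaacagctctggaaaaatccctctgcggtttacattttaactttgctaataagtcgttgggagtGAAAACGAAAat

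The match began 134 bases before the start of Ifi205 and 12 bases before that of Gpr141b, and the windows of Xcr1 and Clec9a held none. No window of the 4 held TGANTCA, the AP-1 letters that BATF3 with a JUN partner is known to bind. Among 18 promoters of the 13 matched genes, out of 16 that stood highest in cDC1, the GAAA pair was found in 3 (16.7%; Dpp4, Gpr141b, Ifi205) and TGANTCA in 3 (P2ry10, P2ry14). Over all 32851 promoters of this length the shares were 2.98% and 6.75%. A match is a run of letters and not a shown binding site.

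cDC1 were deeply read. They held a median of 18669 gene UMIs (3512 to 38050), against 15609.5 in the 234 cells of the cDC2 gate (Cd209a or Flt3 with MHC class II, no Xcr1 or Clec9a, and the same limits on C1q, Cd79a and Cd3e), 11175 in the 2720 cells of the macrophage gate (C1q genes at or above that limit) and 5793 in the 583 cells of the B cell gate. Median antibody counts were 1554, 1594, 1581.5 and 658 in the same order. UMIs of 12458 genes were found in cDC1. Total UMIs per mouse over all kept cells were 3073433, 3907556, 4303703, 1684056 and 7132407 in mice 1 to 5 and 4221513, 11689621, 4575613, 13941143 and 10354932 in mice 6 to 10. Because the gate counts 2 UMIs, shallow cells are less likely to enter it: after every cell was thinned to 2000 UMIs, it held 15 cells, all of them among the 95.

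The share of cDC1 among the kept CD45+ cells of a mouse addresses whether the mutation or the aneurysm goes with more of these cells. In Jak2WT mice 1 to 5, cDC1 were 2 of 298, 17 of 383, 1 of 527, 0 of 140 and 3 of 620 cells, or 0.671%, 4.44%, 0.19%, 0% and 0.484%, where 0 of 140 allows a share of up to 2.14% (3 counts). In the mutant mice they were 20 of 401, 5 of 399 and 9 of 859 cells with dilation (mice 6, 8 and 10: 4.99%, 1.25% and 1.05%) and 23 of 966 and 15 of 1016 with aneurysm (mice 7 and 9: 2.38% and 1.48%). Mouse 2 stood inside the range of the mutant mice, and the other 4 Jak2WT mice lay below every mutant mouse. The means were 2.23% ± 1.62 (SD, n = 5) in Jak2V617F Myel and 1.16% ± 1.85 (SD, n = 5) in Jak2WT mice, a difference of 1.07 percentage points that did not pass (two-sided exact permutation test, p = 0.381, adjusted over 3 share comparisons 0.786, smallest possible p 0.00794). Without mouse 2 the difference was 1.89 points (exact permutation p = 0.0238, adjusted over the 3 share comparisons 0.0714), which does not pass after adjustment either. With the 6 cells that go against the label left out of all mice, it was 1.08 points (exact permutation p = 0.349).

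Among dendritic cells alone (cDC1 plus cDC2), cDC1 made up 16.7%, 51.5%, 33.3%, 0% and 17.6% in mice 1 to 5 and 50%, 25.6%, 26.3%, 19.7% and 30% in mice 6 to 10. The groups overlapped in part. The Jak2WT mice at 16.7%, 0% and 17.6% lay below every mutant mouse (lowest 19.7%). Mouse 3 (33.3%) lay inside the mutant range and mouse 2 (51.5%) above its highest value of 50%. The means were 30.3% ± 11.6 in mutant and 23.8% ± 19.5 in Jak2WT mice (SD, n = 5 each, exact permutation p = 0.524, adjusted 0.786). The difference without the 6 cells that go against the label was 6.84 points (exact permutation p = 0.508). With aneurysm, cDC1 were 1.93% ± 0.640 of cells (SD, n = 2), against 1.63% ± 1.95 in the other 8 mice (exact permutation p = 0.933, smallest possible 0.0222), and the difference of 0.295 points became -0.158 points without mouse 7 and 0.380 points without the 6 cells that go against the label. Against the 3 mice with dilation alone the difference was -0.501 points (exact permutation p = 1, smallest possible 0.1). For comparison, cDC2 were 4.78% ± 1.82 and 3.32% ± 2.25 of cells in mutant and Jak2WT mice (SD, n = 5 each; exact permutation p = 0.302). The denominator also varied: thymocyte-like cells (Cd4, Cd8b1 and a recombination gene together) were 10.4%, 5.24% and 5.36% of mice 3, 6 and 10 and 0.104% to 2.56% of the other 7 mice. Xist stood at 770 to 909 CPM in mice 1, 2, 6 and 7 and at 9.46 to 38.0 CPM in the others. Y-linked genes (Ddx3y, Eif2s3y, Kdm5d and Uty, summed) stood at 3.76 to 12.4 CPM in mice 1, 2, 6 and 7 and at 156 to 198 CPM in the others, as in females and males. The paper used both sexes, and the labels give no sex for each mouse. The part of thymocyte-like cells or of sex in the shares was not tested.

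**Figure D1:**
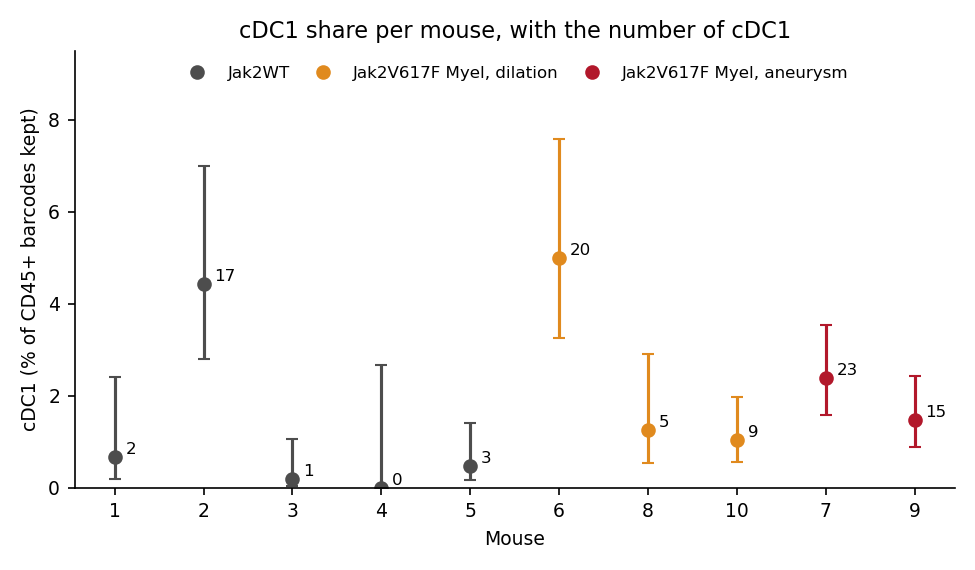
Share of cDC1 among kept CD45+ barcodes (percent) for each of the 10 mice, with Wilson 95% intervals, which cover counting error only, and the number of cDC1 printed beside each point. Mouse 2 (4.44%) and mouse 6 (4.99%) stand above the others, and 4 of 5 Jak2WT mice lie below 1%.

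Transcript levels are means ± SD over the 7 mice with at least 3 cDC1 (2, 5, 6, 7, 8, 9 and 10), in CPM of UMIs read from the 3′ end, and are a description, since the cells were chosen by transcripts of the same libraries. Irf8, the factor that sets the cDC1 fate, was at 926 ± 171 CPM in cDC1 and 32.9 ± 38.7 CPM in cDC2, 28.2-fold lower in the latter. Over the 7 mice in that order it stood at 1044, 1223, 837, 796, 839, 1001 and 740 CPM, each above the highest cDC2 value of 103 CPM. Naaa was at 970, 805, 613, 951, 831, 1071 and 604 CPM in cDC1 and 85.4 to 290 CPM in cDC2, and Wdfy4 at 365, 279, 344, 394, 441, 430 and 332 CPM against 35.1 to 117 CPM. For neither gene did the classes overlap (nor for 7.57% of all 7001 genes compared), and both held a narrow range over mice of either genotype.

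Among the 10 genes with the largest fold over cDC2 (of genes at 100 CPM or more, with cDC2 levels under 3 counts per mouse set to that floor) were Cadm1, an adhesion molecule (263 ± 86.5 against 8.45 CPM), Tlr3, the sensor of double-stranded RNA (160 ± 49.3 against 0.407 CPM), Ppt1, a lysosomal thioesterase that acts in cross-presentation (739 ± 135 against 43.5 CPM), Ifi205 (249 ± 33.6 against 12.8 CPM), Rtl8a (185 ± 59.0 against 11.7 CPM) and P2ry14, a receptor for UDP-glucose (138 ± 18.9 against 8.38 CPM). The other 4 were Irf8, Gpr141b and both gate genes. Against macrophages the 10 were Sept3, both gate genes, Gpr141b, Btla, Ifi205, Gpr171, Dpp4, P2ry10 and Ccl22. Sept3, a septin, was at 230 ± 36.6 CPM in cDC1, 28.2 CPM in cDC2 and 0.246 CPM in macrophages. Btla, an inhibitory receptor, was at 101 ± 28.8, 12.8 and 0.740 CPM in the same order, and Dpp4, which encodes CD26, at 148 ± 38.5, 92.2 and 2.74 CPM. The cysteine protease inhibitor Cst3 reached 22537 ± 2903 CPM in cDC1, with 5486 CPM in cDC2 and 4346 CPM in macrophages.

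**Figure D2:**
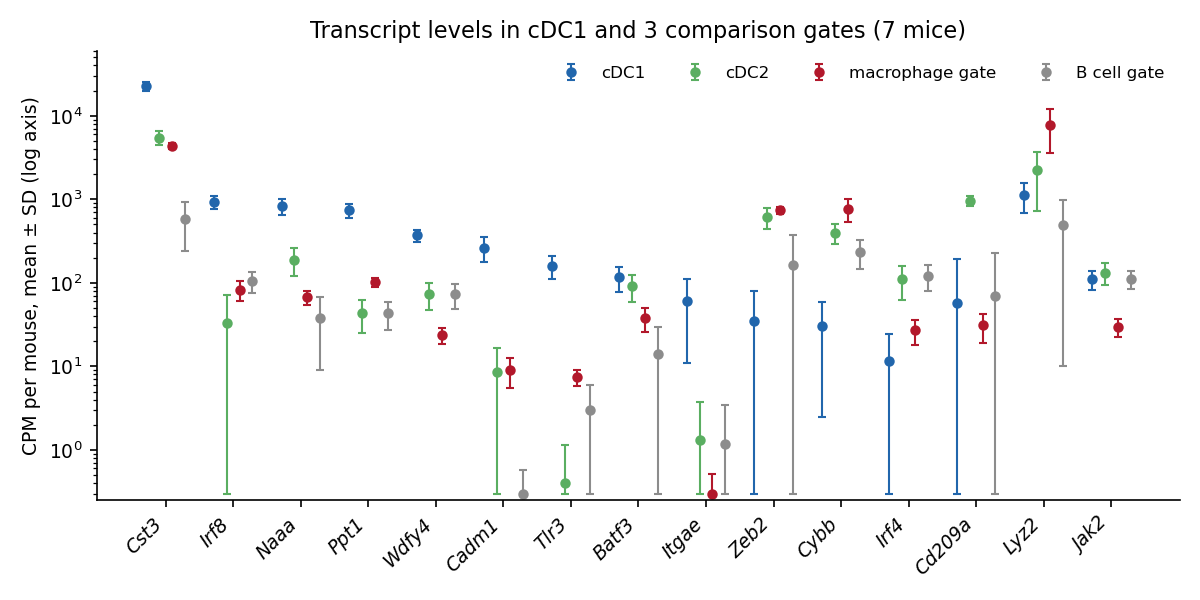
Mean ± SD of CPM over 7 mice (log axis) for 15 genes in cDC1 and the cDC2, macrophage and B cell gates. Values and bar ends near 0 are drawn at the lower edge. Irf8, Naaa, Wdfy4, Cadm1 and Tlr3 are highest in cDC1, while Zeb2 and Cybb are higher in cDC2. Cd209a is also higher in cDC2, but it is a gene of the cDC2 gate, so its direction was set by that choice.

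All 24 cDC1 surface and identity genes that could be compared were higher in cDC1 than in cDC2 by mean (median log2 difference 3.59), where 41.8% of all 7001 genes compared were higher (median -0.12). This list overlaps the gate and was known to mark these cells, so its direction is not independent of the choice of members. The transcription factors of dendritic cells divided, with 7 of 16 higher (median -0.094). Beside Irf8, Id2, an inhibitor of E proteins needed for dendritic cell development, was at 545 ± 206 against 166 CPM, while Batf3 differed little (116 ± 38.1 against 91.6 CPM), as did Cbfa2t3 (227 ± 71.2 against 219 CPM). Zeb2, a repressor tied to the cDC2 and macrophage fates, was at 35.1 ± 45.6 CPM in cDC1, 611 CPM in cDC2 and 735 CPM in macrophages. In cDC1 of mouse 10 it was at 136 CPM and in the other 6 mice at 2.35 to 34.2 CPM, and mouse 10 held 2 of the 4 Cd209a cells, without which it was at 21.1 CPM. Irf4 was at 11.5 ± 13.1 against 110 CPM. None of 16 cDC2 markers was higher in cDC1 (median -3.56). The cDC2 gate chose its cells by Cd209a and Flt3, so this direction is not independent of that choice. The summed level of the 16 was 861, 495, 303, 416, 331, 507 and 1529 CPM in the 7 mice in the order above, against a mean of 5451 CPM in cDC2. Without their Cd209a cells it was 547 and 274 CPM in mice 2 and 10. The most abundant in cDC1 was Ccr2 (287 CPM).

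Of 21 genes of MHC class I presentation compared, 12 were higher in cDC1 (median log2 difference 0.096). Subunits of the immunoproteasome and its activator, which cut peptides for class I, were among them: Psmb9 was at 439 ± 77.1 against 95.5 CPM, Psmb8 at 626 ± 42.2 against 321 CPM and Psme1 at 739 ± 54.4 against 312 CPM. The peptide transporter genes Tap1 and Tap2 were at 122 and 115 CPM against 45.3 and 40.3 CPM. The class I heavy chain H2-D1 was lower (1166 against 1777 CPM), and so was Cybb, the NADPH oxidase chain of the phagosome (30.7 against 396 CPM in cDC2 and 771 CPM in macrophages). Psmb9 ranged from 313 to 526 CPM over the 7 mice in cDC1 and from 61.05 to 141 CPM in cDC2, without overlap.

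Of 13 class II presentation genes, 3 were higher in cDC1 than in cDC2 (median -0.35), and the cDC2 gate itself required class II transcripts. Cd74, the invariant chain, was at 19531 ± 2514 against 30186 CPM, H2-Ab1 at 9346 against 12297 CPM, and cathepsin S (Ctss) at 364 ± 115 against 1169 CPM. H2-Ob, a subunit of the class II modulator H2-O, was one of those that were higher (165 against 70.4 CPM). cDC1 nonetheless stood above macrophages for 10 of the 13 genes (median 2.22), where 31.0% of all 7900 genes compared with macrophages were higher (median -0.40).

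Of 14 genes of mature, migratory dendritic cells 5 were higher than in cDC2 (median -0.46), Fscn1, the actin bundler of migratory dendritic cells, was at 0 and Cacnb3 at 1.55 CPM. Only 1 of 95 cDC1 had at least 3 UMIs of Ccr7, the lymph node homing receptor: a cell of mouse 9 with 27 Ccr7 UMIs, 37496 UMIs in all and the highest I-A/I-E (class II) antibody count, 10758, but no Fscn1 or Cacnb3. Cd83 was at 1325 ± 567 against 1178 CPM and Cd40 at 9.14 ± 7.65 against 47.3 CPM. Of 16 cytokine and chemokine genes 4 were higher (median -0.91). Il1b was at 2699 ± 881 against 4589 CPM and Cxcl2 at 91.0 against 912 CPM in cDC2 and 11084 CPM in macrophages. Ccl22, a CCR4 ligand, varied between mice, at 103, 15.5, 186, 202, 577, 35.0 and 10.9 CPM in mice 2, 5, 6, 7, 8, 9 and 10, a spread wider than its difference from cDC2 (161 ± 199 against 125 CPM).

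Of 10 pattern recognition genes 4 were higher than in cDC2 (median -0.65), near the 41.8% of all genes: Tlr3 was, as was Tlr11, the receptor for profilin (16.2 ± 9.77 against 3.52 CPM), whereas Tlr2, a receptor for bacterial lipoproteins, was at 13.1 against 79.2 CPM and Tlr7 at 1.61 CPM against 104 CPM in macrophages. Of 19 interferon-stimulated genes compared 6 were higher (median -0.71), with Ifi211 at 155 ± 37.7 against 64.2 CPM and Isg15 at 5.48 ± 6.94 against 155 ± 155 CPM. JAK-STAT genes matter here because the mutation lies in Jak2. Of 26 compared 9 were higher (median -0.32): the interferon gamma receptor Ifngr1 was at 462 ± 152 against 184 CPM, Jak1 at 94.8 against 164 CPM, and Socs3, an inhibitor induced by the pathway, at 120 against 335 CPM.

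Jak2 itself (chr19:29251828-29313080, plus strand) was at 110 ± 27.1 CPM in cDC1, 133 ± 40.0 CPM in cDC2, 112 CPM in B cells and 29.4 CPM in macrophages. Its counts do not tell the mutant from the normal allele. Lyz2 (chr10:117277331-117282321, minus strand), whose promoter drives the Cre, was at 1125 ± 433 CPM in cDC1, 2222 CPM in cDC2, 7790 CPM in macrophages and 496 CPM in B cells, which do not use it. After thinning each cell to 2000 UMIs, 75.8% of cDC1, 29.3% of B cells and 97.7% of macrophages had a Lyz2 UMI (97.9%, 63.8% and 99.4% unthinned), with the B cell share as a background for free RNA in the pool, which lay below that of cDC1. How much of the cDC1 value was free RNA was not tested.

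Surface antibodies were not used by the rule, apart from XCR1 being the protein of a gate gene, and were compared between cDC1 and cDC2 of the same 7 mice by edgeR's quasi-likelihood test with the mouse as a block. Of 70 antibodies, 20 (28.6%) passed an adjusted p of 0.05, 9 higher (12.9%) and 11 lower (15.7%) in cDC1, and the median log2 difference of all 70 was -0.45, a shift that depended on the scaling (-0.23 when scaled by total counts). XCR1, given as a check of the gate, stood at 14.3, 9.67, 13.7, 16.3, 20.6, 13.4 and 12.3 counts per cell in cDC1 of mice 2, 5, 6, 7, 8, 9 and 10, and at 0.280 ± 0.145 counts (SD, n = 7) in their cDC2. Above 1 count, the 95th percentile of cDC2, were 86 of 95 cDC1 (90.5%). The 3 isotype control antibodies with counts gave 0.0134 to 0.178 counts per cDC1, and a rat IgG2a control had no count in any cell and measures no background.

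CD103, the integrin alpha E chain, which with beta 7 binds E-cadherin, showed the largest difference. It stood at 84.8, 4.67, 58.5, 72.9, 15.4, 37.8 and 5.56 counts per cDC1 in the 7 mice and at 0.0714 to 2.23 counts per cDC2, so that the classes did not overlap (10% of the 70 antibodies did not), with a log2 difference of 6.07 ± 0.63 (SE; edgeR adjusted p = 3.02e-06). Its partner, ITGB7, was at 91.1, 12, 64.8, 85.4, 22.2, 52.2 and 14.4 counts against 3.59 ± 1.33 in cDC2 (log2 difference 3.27 ± 0.40, edgeR adjusted p = 1.31e-05). Mice 5, 8 and 10 were low for both chains and mice 2, 6 and 7 high, and neither genotype nor aneurysm separated them. Mice 2, 6 and 7 are those of the 7 with high Xist over all their cells (770 to 909 CPM, against 9.46 to 24.4 CPM in mice 5, 8, 9 and 10), so that in these 7 mice neither chain overlapped between high and low Xist. The single cDC1 of mouse 3, a mouse of low Xist (14.4 CPM), had 160 CD103 counts, and the 2 of mouse 1, of high Xist, had a mean of 87.5. The split by Xist is also the split by Y-linked genes, and the part of sex or of what goes with it was not tested. TIM4, a receptor for phosphatidylserine on dying cells best known on resident macrophages, was at 41.0, 33.0, 23.6, 38.8, 24.4, 22.7 and 2.00 counts per cDC1, 2.33 ± 0.817 per cDC2 and 43.9 per macrophage (log2 difference from cDC2 3.09 ± 0.45, edgeR adjusted p = 8.02e-05). In mouse 10 the TIM4 value lay within the range of cDC2. Timd4 transcripts were found in 52.6% of cDC1 and 13.7% of cDC2, with no thinning.

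CD24, a glycosylated adhesion molecule long used to sort cDC1, was at 485 ± 204 against 109 ± 42.4 counts per cell (log2 difference 1.93 ± 0.29, edgeR adjusted p = 8.66e-05), without overlap of the classes in these 7 mice. In mouse 4, which had no cDC1, CD24 stood at 449 counts per cDC2, above cDC1 of mice 6, 7 and 10 (224, 369 and 354). CD26 (dipeptidyl peptidase 4) stood at 19.6, 13.7, 15.0, 15.7, 19.0, 11.5 and 10.8 counts per cDC1 against 8.18 ± 1.69 in cDC2. Its log2 difference was 0.67 ± 0.19 (edgeR adjusted p = 0.0173), which was lost without mouse 2 (0.0555), as was that of JAML (0.70 ± 0.19, adjusted p = 0.0122, without mouse 2 0.0542). Macrophages had a median of 0 CD26 counts and B cells of 1. ICAM1, the ligand of LFA-1, was at 47.5 against 26.3 counts (log2 difference 0.76 ± 0.24, edgeR adjusted p = 0.0268). CD117, the protein of Kit, was at 5.07 ± 4.19 against 1.38 counts (log2 difference 1.76 ± 0.57, edgeR adjusted p = 0.0295), which did not pass without the block (0.0522), nor without mouse 6 or mouse 7.

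Among the antibodies that were lower, CD11b, the integrin alpha M chain, was at 29.5 ± 17.0 counts per cDC1 against 273 ± 59.8 per cDC2 (log2 difference -3.59 ± 0.34, edgeR adjusted p = 2.07e-06). The lectins MGL2 and MGL1 differed by -3.75 ± 0.39 and -2.80 ± 0.49, the phagocytosis checkpoint Sirpa by -2.72 ± 0.29, the lipopolysaccharide co-receptor CD14 by -1.47 ± 0.20 and the haemoglobin scavenger CD163 by -1.32 ± 0.26 (log2 ± SE, edgeR adjusted p 0.0004, or 0.00134 for CD163, at most). The medians per cell for CD163 lay closer, at 28 counts in cDC1 and 33 in cDC2. The other 5 were CCR2 (-2.49 ± 0.66), CD127 (-1.90 ± 0.57), CXCR4 (-1.81 ± 0.63), F4/80 (-1.38 ± 0.42) and CD80 (-1.12 ± 0.29; edgeR adjusted p 0.00933 to 0.0449). Of these, CD80 was at 2.06 against 3.87 counts per cell and F4/80 at 0.340 against 0.876. CCR2 (0.0146 against 0.12), CXCR4 (0.0567 against 0.254) and CD127 (0.0589 against 0.290) stood near the counts of the isotype controls, which reached 0.178 in cDC1 and 0.171 in cDC2, so that their differences are not read as surface protein. In mouse 10, which held 2 Cd209a cells, MGL1 and MGL2 stood at 6.67 and 4.44 counts per cDC1, against at most 2.94 and 1.27 in the other 6 mice, and at 1.14 and 1.71 without those cells. I-A/I-E (653 ± 238 against 896 ± 125 counts), CD86 and CD40 did not pass (edgeR adjusted p = 0.0567, 0.0514 and 0.0502). The cDC2 gate required class II transcripts, so that the direction of I-A/I-E is not independent of that choice. With the 6 cells that go against the label removed, 24 antibodies were called. Of the 20 calls, 12 held under every alternative tried: CD103, CD11b, CD14, CD163, CD24, ICAM1, ITGB7, MGL1, MGL2, Sirpa, TIM4 and XCR1.

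**Figure D3:**
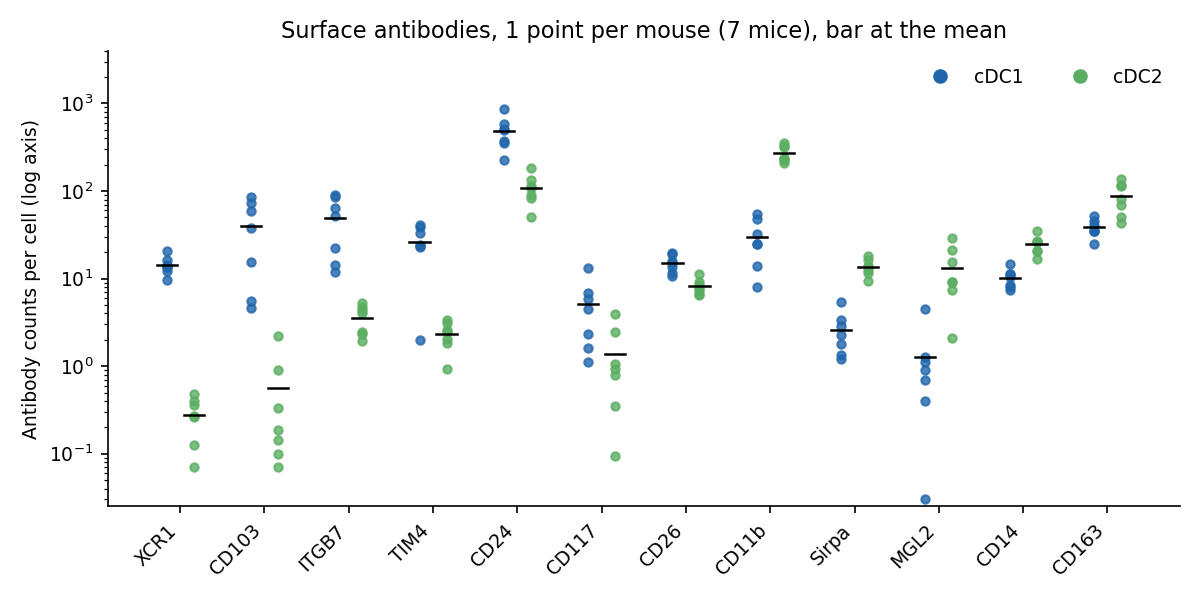
Antibody counts per cell (log axis) for 12 antibodies, with a point for each of 7 mice and a bar at their mean, in cDC1 and cDC2; MGL2 had no count in cDC1 of mouse 5, drawn at the lower edge. XCR1, CD103, ITGB7 and CD24 do not overlap between the classes in these mice, nor do CD11b and Sirpa in the opposite direction.

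CD103 divided the cDC1 among themselves. Its count ran from 0 to 337 per cell with a median of 20, and 75 of 95 cells (78.9%) stood above 2 counts, the 95th percentile of cDC2. Cells above that limit were 13 of 17 in mouse 2, 17 of 20 in mouse 6, 19 of 23 in mouse 7, 5 of 5 in mouse 8, 11 of 15 in mouse 9 and 7 of 9 in mouse 10, with medians of 50, 30.5, 44, 9, 22 and 5 counts. In mouse 5 it was 1 of 3, and the single cDC1 of mouse 3 had 160 counts. The same cells carried both chains: over the 95 cells CD103 and ITGB7 had a Spearman rho of 0.944, and 0.958, 0.903, 0.963, 0.941 and 0.679 within mice 2, 6, 7, 9 and 10. These points share libraries and mice, and CD103 had a rho of 0.108 with the gene UMIs and 0.385 with the antibody total of the cell. CD103 followed its own transcript Itgae (rho 0.704), whereas ITGB7 did not follow Itgb7 closely (0.122). The rho of CD103 was 0.531 with TIM4 (0.297 to 0.561 within those 5 mice) and 0.434 with XCR1 (0.284 to 0.544). With CD24 it was 0.248 and with I-A/I-E 0.167, but within mice these ran from -0.0223 to 0.709 and from -0.473 to 0.429, so that the sign turned between animals. TIM4 stood above 10 counts, its 95th percentile in cDC2, in 43 of 95 cells (45.3%) and had a rho of 0.603 with Timd4.

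**Figure D4:**
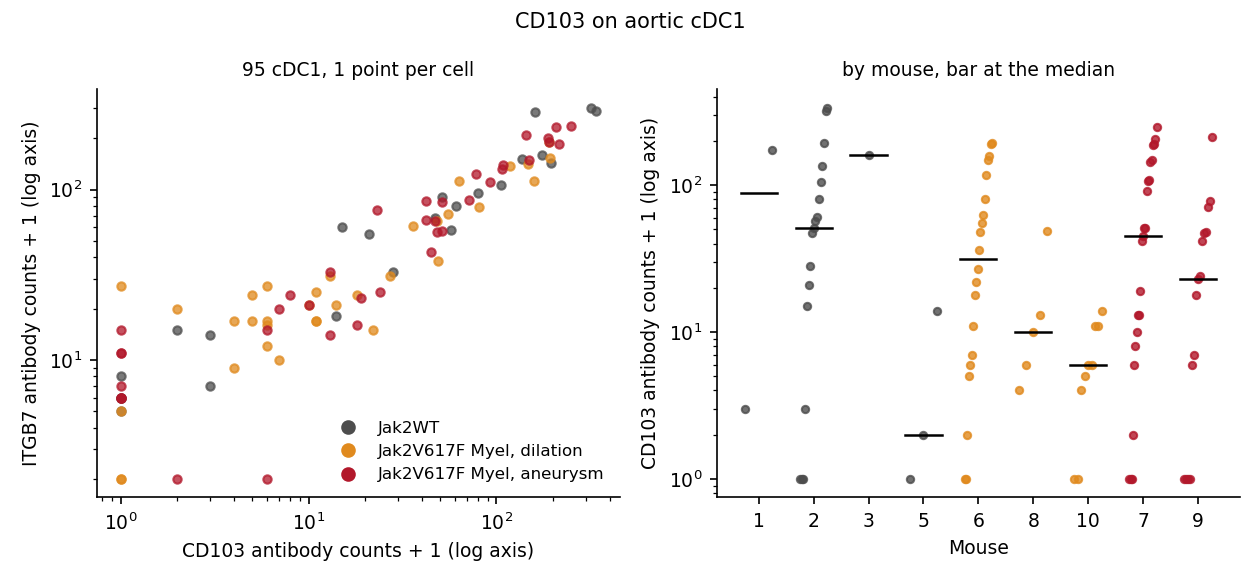
Left, CD103 against ITGB7 antibody counts plus 1 in each of 95 cDC1 (log axes), coloured by group; right, CD103 counts plus 1 by mouse (log axis), with a bar at the median. Both chains go together over the whole range, and cells of all 3 groups lie along the same band.

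At least 3 UMIs of the proliferation gene Mki67 were found in 12 of 95 cDC1 (12.6%): 5 in mouse 2, 3 in mouse 6 and 1 each in mice 3, 7, 8 and 10. With the UMIs of each set of cells pooled over mice, Top2a was at 492 CPM in these cells and 6.87 CPM in the other 83. Stmn1 was at 756 and 25.0 CPM, and both are genes of dividing cells like the one that chose them. The cells differed among themselves, with 3 to 51 Mki67 UMIs, 12 or more Top2a UMIs in 5 of the 12 and no Top2a in another 5, so that these levels come from part of them. One of the 12 is the Cd209a cell of mouse 2. Irf8 was at 921 CPM in the 12 cells and 886 CPM in the others, and Naaa at 769 and 867 CPM, with median XCR1 antibody counts of 22 and 14. The 12 cells held a median of 25089.5 UMIs.

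Whether the mutation went with a change of cDC1 transcripts was tested on UMIs summed per mouse, with Jak2WT mice 2 and 5 (17 and 3 cells) against mice 6 to 10 (20, 23, 5, 15 and 9 cells). None of 3907 genes tested passed (0% called, edgeR's quasi-likelihood test, smallest adjusted p = 0.115), with 188 at an unadjusted p under 0.05, and DESeq2 called 1 gene, Mt1. With the 6 cells that go against the label removed the count was also 0, but it was 13 without mouse 5, 2 without mouse 2 and 1 without mouse 7. With only 2 Jak2WT mice, one of 3 cells, this does not show that the genotypes were alike. Mt1, the metal-binding metallothionein 1, stood at 348 and 263 CPM in the Jak2WT mice and 799, 639, 1195, 1221 and 1045 CPM in mutant mice 6 to 10, a log2 difference of 1.63 ± 0.30 (SE, edgeR adjusted p = 0.115). These groups did not overlap (nor for 9.7% of all genes tested), but the 2 cDC1 of Jak2WT mouse 1, too few for the test, held 180 Mt1 UMIs (4928 CPM), and with sums of any size the difference was -0.48. One of those 2 cells is a Cd209a cell with no Irf8, and the other held 4 Mt1 UMIs (257 CPM). In cDC2 of the 7 mice Mt1 stood at 1427 to 3657 CPM. Hspa1a, a stress-induced heat-shock protein, stood at 1534 and 1301 CPM in Jak2WT and 430, 291, 636, 561 and 196 CPM in mutant mice (log2 difference -1.77 ± 0.32, edgeR adjusted p = 0.115). Its near-identical copy Hspa1b shares reads with it, and stood at 2201 and 372 CPM against 245 to 670 CPM. The immediate-early gene Egr1 stood at 505 and 325 CPM against 206, 181, 237, 172 and 201 CPM (-1.13 ± 0.22, edgeR adjusted p = 0.154). The groups did not overlap for Hspa1a or Egr1 in the 7 mice tested, but the single cDC1 of Jak2WT mouse 3 held 1 UMI of each (32.6 CPM), below every mutant mouse, and the 2 cells of Jak2WT mouse 1 stood above every mutant mouse, at 3915 CPM of Hspa1a and 1068 CPM of Egr1.

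The other genes with the smallest p were Serpinb6b, a protease inhibitor (log2 difference 2.58), Cmtr1 (1.22) and Ifitm2 (1.04) on the higher side and Stmn1 (-2.29), Mrpl23 (-1.45) and Tra2b (-1.02) on the lower side, with edgeR adjusted p of 0.456 to 0.721. Bcl3 was also among those on the higher side, but held 1 UMI in each of Jak2WT mice 2 and 5, so that its fitted value is no fold. Serpinb6b rests on 5 and 3 UMIs in these 2 mice, and Cmtr1 on 28 and 4 UMIs. In the Jak2WT mice left out of the test, Ifitm2 was at 821 CPM (30 UMIs) in mouse 1, above every mutant mouse. In mouse 3 it was at 32.6 CPM (1 UMI), below every mutant mouse. Mrpl23 was at 27.4 and 32.6 CPM (1 UMI each) in mice 1 and 3, within the range of the mutant mice (25.4 to 54.4 CPM). Tra2b was at 164 CPM (6 UMIs) in mouse 1, within its mutant range of 84.8 to 169 CPM, and at 229 CPM (7 UMIs) in mouse 3, above it. With each mouse left out in turn, Ifitm2 ranged from 0.50 to 1.49 and Serpinb6b from 1.25 to 3.11. Stmn1 rested on mouse 2 (385 CPM, against 0 in mouse 5), which held 5 of the 12 cells with at least 3 Mki67 UMIs, and among the Jak2WT mice left out of the test it was at 0 in mouse 1 and 2351 CPM (72 UMIs) in mouse 3. Jak2 stood at 131 and 139 CPM in Jak2WT and 127, 127, 84.8, 82.9 and 76.2 CPM in mutant mice (-0.34 ± 0.30, edgeR adjusted p = 1.00), and Lyz2 at 570 and 1858 CPM against 886, 1047, 1526, 886 and 1105 CPM (-0.13 ± 0.37). For Jak2, the Jak2WT mice 1 and 3 left out of the test were at 54.8 and 65.3 CPM (2 UMIs each), below every mutant mouse. By list, none of the genes tested passed in any. Identity genes were higher in 12 of 21 (median log2 difference 0.035), class I presentation genes in 16 of 19 (0.22), class II genes in 6 of 12 (0.012), JAK-STAT genes in 10 of 21 (-0.056) and interferon-stimulated genes in 4 of 7 (0.16), where 50.7% of all genes tested were higher (median 0.0070). Cell cycle genes were lower in 15 of 16 (median -1.05) and immediate-early and heat-shock genes in 19 of 23 (median -0.46). The summed level of the cell cycle list was 4346 CPM in mouse 2 and 542 CPM in mouse 5, with 2184, 1488, 1026, 570 and 1001 CPM in mice 6 to 10, and in the Jak2WT mice left out of the test 1259 CPM in mouse 1 and 15476 CPM in the single cell of mouse 3. The summed level of the immediate-early and heat-shock list was 25229 and 21801 CPM in Jak2WT and 16497, 18378, 19151, 18483 and 14940 CPM in mutant mice, without overlap in these 7 mice. In the Jak2WT mice left out of the test it was 39865 CPM in mouse 1 (2 cells) and, within the range of the mutant mice, 17239 CPM in mouse 3 (1 cell). The plasmacytoid list summed to 565 and 876 CPM in mice 6 and 9, which hold the 2 Siglech cells, and to 92.9 to 163 CPM in the other 5 mice.

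**Figure D5:**
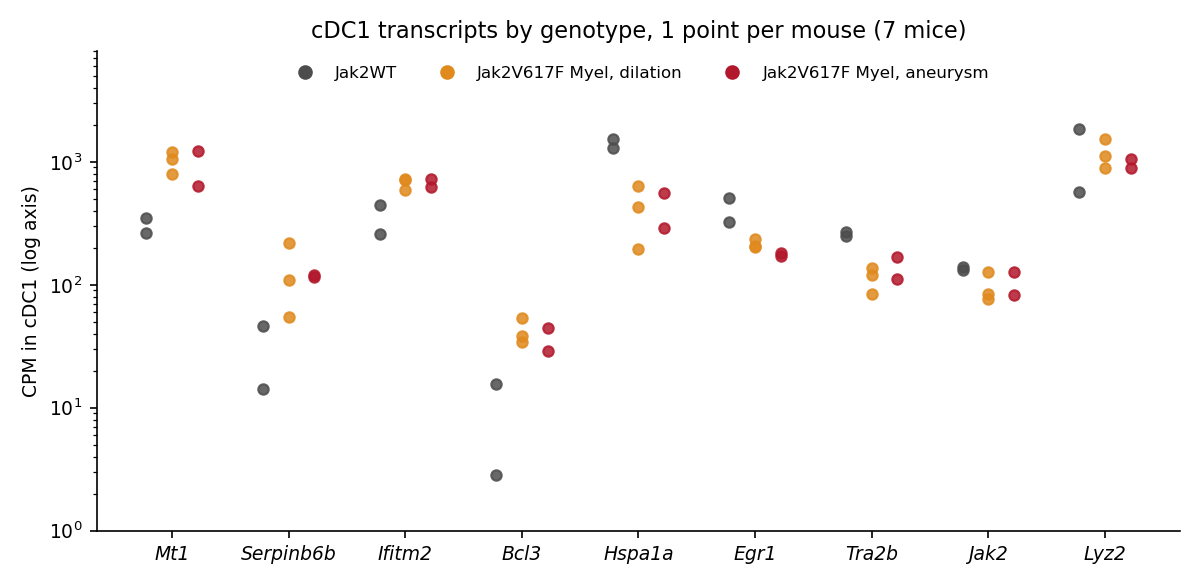
CPM in cDC1 (log axis) of 9 genes, with a point for each of 7 mice, by genotype and disease. Mt1 is lower and Hspa1a and Egr1 higher in the 2 Jak2WT mice tested, without overlap, while Lyz2 overlaps, and none passed an adjusted p of 0.05 by edgeR.

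Between the aneurysm (mice 7 and 9) and dilation (mice 6, 8 and 10) none of 3618 genes passed (0% called, edgeR, smallest adjusted p = 0.652), with 129 at an unadjusted p under 0.05 and none called by DESeq2 (38 unadjusted). With the 6 cells that go against the label removed the count was 0 (141 unadjusted), and without mouse 7, which leaves a single aneurysm, 6 genes were called. The smallest p belonged to a cytokine and a chemokine. Tnf stood at 86.5, 102 and 43.5 CPM with dilation and 16.4 and 3.19 CPM with aneurysm (log2 difference -2.81 ± 0.59, edgeR adjusted p = 0.652), and Ccl2, which draws CCR2+ monocytes, at 22.9, 50.9 and 70.8 against 150 and 137 CPM (1.75 ± 0.37, same adjusted p). Neither gene overlapped between the groups, nor did 17.2% of all genes tested, and Tnf in the aneurysm mice rests on 7 and 1 UMIs. In Jak2WT mice 2 and 5, Tnf was at 128 and 0 CPM and Ccl2 at 34.2 and 15.5 CPM. Next were Timm10b (0.91), Fcrla (1.26), Cldnd1 (1.13) and Snx22 (1.92), higher with aneurysm, and Tnni2 (-1.02), Ccl3 (-3.04), Mapk3 (-2.56) and Txndc16 (-1.55), lower with aneurysm (log2 differences, edgeR adjusted p = 0.999 each). The groups overlapped for Ccl3 (68.7, 17.0 and 332 CPM with dilation, 11.7 and 22.3 CPM with aneurysm) and Txndc16 (224, 33.9 and 152 against 56.3 and 47.8 CPM). Snx22 rests on 5, 2 and 1 UMIs in dilation mice 6, 8 and 10, and Mapk3 on 3 and 2 UMIs in aneurysm mice 7 and 9.

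Of 70 surface antibodies none differed between genotypes on cDC1 (0% called, edgeR, smallest adjusted p = 0.965), with 2 at an unadjusted p under 0.05, CCR3 (log2 difference 4.30 ± 1.5) and CD117 (1.78 ± 0.78), and none called by DESeq2, nor by edgeR with the 6 cells that go against the label removed. CCR3 had no count in Jak2WT mice 2 and 5 and 0.130 to 0.400 counts per cell in the mutant mice, near the isotype controls, and 0.5 in Jak2WT mouse 1 (2 cells, left out of the test), so that its fitted value is no fold. CD117 stood at 1.12 and 2.33 counts per cell in Jak2WT and 4.55, 5.78, 1.60, 13.2 and 6.89 in mutant mice 6 to 10, with overlap. XCR1 differed by 0.18 ± 0.32, CD26 by -0.37 ± 0.33, TIM4 by -0.88 ± 0.75 and CD103 by -0.22 ± 1.02 (log2 ± SE), errors that leave room for sizeable differences in CD103 and TIM4. With each mouse left out in turn, CD103 ranged from -1.10 to 2.68, so that its direction turned.

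Whether the genotype difference was another in cDC1 than in cDC2 was tested as an interaction over both classes of the 7 mice, which share the animals. None of 4693 genes passed (0% called, edgeR, smallest adjusted p = 1), with 203 at an unadjusted p under 0.05 and none called by DESeq2 (64 unadjusted). The count was also 0 with the 6 cells that go against the label removed (192 unadjusted), and without mouse 6 a single gene passed, Pclaf. Among the smallest p, the mutant-minus-Jak2WT difference was larger in cDC1 for Mt1 (difference of log2 differences 2.15 ± 0.54), the kinase Map4k1 (1.61 ± 0.41), Actg1 (0.67 ± 0.17) and Cd74 (0.45 ± 0.12), and smaller for Phlda1 (-3.15 ± 0.77) and the phosphatase Dusp2 (-2.02 ± 0.56). Phlda1 was low in cDC2 of Jak2WT mice 2 and 5, at 41.5 and 15.1 CPM. In cDC1 its genotypes overlapped, at 371 and 170 CPM in these mice against 41.4 to 331 CPM in mutant mice. Areg, Id3 and Pclaf also had small p, but mice at 0 in one of the classes make their fitted values no folds, and 2310033P09Rik held 1 UMI in cDC2 of each Jak2WT mouse tested, so that its value is no fold either.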

How the data were processed

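CITE-seq counts of aortic CD45+ cells from 10 mice, pooled into a single run of 3 libraries (transcripts, antibodies, hashtags), were used. The authors deposited UMI counts per barcode, unnormalized, for 32285 genes, 75 antibodies (73 with counts) and 10 hashtags, made with Cell Ranger 6.0.2 per the file header; the submitters' processing notes name the mm10 build and Seurat 3.0.0. Every deposited count column was used (0 per-sample columns left out), and no cell labels of the study were used.

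Cells were assigned to mice by the top hashtag, which also removes doublets of different mice but not those within a mouse. The members, gene lists and tests were chosen with earlier results of these data known. The comparison gates were, on the same barcodes, cDC2 (Cd209a plus Flt3 at least 2 UMIs, class II at least 100 per 10000 UMIs, no Xcr1 or Clec9a, C1q under 10 per 10000, no Cd79a or Cd3e), macrophages (C1q at least 10 per 10000) and B cells (Cd79a at least 2 UMIs). Counts were summed per mouse with at least 3 cells per sum, since cells are not replicates. Each mouse is a separate animal.

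Transcripts and antibodies were tested by edgeR 4.0.16 (filterByExpr for transcripts, TMM, quasi-likelihood F test, two-sided, Benjamini-Hochberg over all features, threshold 0.05; R 4.3.3), shares by two-sided exact permutation tests (SciPy 1.17.1). Standard errors are the absolute log2 difference over the root of F. Genes of the rule stayed in the fits but were not counted. List medians take log2 of CPM plus 1, over genes at 10 CPM or more in either class. The genes named were members of the lists, the 10 genes of largest fold over cDC2 and macrophages at 100 CPM or more, the 5 of smallest p in each direction where fewer were called, called antibodies with XCR1, CD103 and CD26, and Jak2 and Lyz2; single cells and mice were described after their values were seen. Alternatives were DESeq2 1.42.0, no filter on low counts, other hashtag, UMI, mitochondrial and gate limits, other minimum cells per sum, total scaling, no replicate block, a fit of 3 groups, cells with other-lineage UMIs removed, and each mouse left out; removal without Kit and removal of the cells that go against the label were chosen after seeing the data. The code was tested on simulated data. Other tools were Python 3.11.15, NumPy 2.4.6, pandas 2.3.3 and matplotlib 3.10.9. Gene positions are from GENCODE vM21 and promoters from RefSeq (GRCm38.p6).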

Additional observations from a re-analysis of the deposited data

Results flagged for a closer look

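Of 37 groups of 5 mice examined for a single animal far from the others, 5 were past the 95% limit of Dixon's ratio, where chance gives about 1 in 20. Among Jak2WT mice, mouse 2 stood apart in its share of cDC1 (4.44%, with the next at 0.671%). Among mutant mice, mouse 10 stood apart in MGL1 (6.67 counts per cDC1, next 1.40) and MGL2 (4.44, next 1.27), antibodies of cDC2 and macrophages, and 2 of its 9 cDC1 were Cd209a cells without Irf8. Mouse 8 stood apart in Cadm1 (424 CPM, next 234). Mouse 7 stood apart in CCR2 antibody (0.0435 counts per cDC1, the others at 0), which is 1 count over 23 cells.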

How the results depend on the processing

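Of 119 alternative values of the 8 comparisons, 107 kept their direction and side of the threshold or stayed within 1.5 times the count. Without mouse 2 the genotype difference in the share was 1.89 percentage points (exact permutation p = 0.0238, adjusted 0.0714). Leaving out each mouse gave 0.383 to 1.89 points, and -0.158 to 0.774 points for aneurysm. Over all alternatives the lowest genotype difference was 0.153 points, in a setting that left out no mouse. Genes called between genotypes were 40 with no filter on low counts, 13 with sums of at least 5 cells (mouse 2 alone as Jak2WT, assumed to vary like the others), 1 by DESeq2 and 0 to 13 with each mouse left out (13 without mouse 5, 2 without mouse 2, 1 without mouse 7). Between aneurysm and dilation they were 15 with no filter and 0 to 6 (6 without mouse 7), and for the interaction 14 with no filter and 0 to 1 (1 without mouse 6); the cause was not tested. Without the replicate block, which pairs both classes of a mouse, 21 antibodies and 0 interaction genes were called. Antibody calls between cDC1 and cDC2 ranged from 15 to 24, and 24 were called with the 6 cells that go against the label removed.

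Of 773 values of single features, 13 turned in direction, none of them past the threshold; ranges are over mice left out in turn. Between genotypes Mt1 was -0.48 with sums of any size, Stmn1 ranged from -2.83 to 6.69 (without mouse 2), and Lyz2 was 0.18 with sums of any size, 1.01 with at least 5 cells and 1.16 with other-lineage cells removed, with a range of -0.88 to 1.01. CD103 was 0.0076 by total scaling and ranged from -1.10 to 2.68 (without mouse 2). Jak2 between aneurysm and dilation ranged from -0.26 to 0.40, with -0.0069 and -0.12 without mice 8 and 10, and Pclaf in the interaction from -5.90 to 0.78 (without mouse 2). Few cells (3 in mouse 5, 5 in mouse 8) limit what the sums can show.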
